A study of Homo sapiens with 24 samples.

Results

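The comparison set 2 liver cancer lines of poorly differentiated type, HLE and SK-HEP1, against 4 lines usually described as hepatocyte-like, Hep3b, Huh1, Huh7 and HepG2. It used 6 of the 24 libraries of the series: cells given a control siRNA (siCTL) and no TGF-beta, 1 library per line, 2 libraries against 4. The labels call all 6 lines hepatocellular carcinoma (HCC) cells with genotype wt, grown in the same medium with serum. The other 18 libraries came from the same lines after 24 hours with 2 ng/ml TGF-beta, an siRNA against the RNA-binding protein SFPQ (siSFPQ, labelled SFPQ KD), or both, and are used below only where that is said. Each line is an established culture grown from 1 patient's tumour and has 1 library per condition, so the line is the replicate and every p-value measures the spread between lines. SK-HEP1 came from ascites and has often been described as endothelial rather than hepatic. The question is which genes set the pair apart at rest, before any treatment.

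Hepatocytes make most plasma proteins, among them albumin (ALB), under a network of transcription factors that bind each other's genes: HNF4A, the FOXA proteins and the CEBP proteins. Carcinoma cells that lose this program often also lose epithelial adhesion, built on the cadherin CDH1, and gain mesenchymal genes such as the intermediate filament vimentin (VIM), the receptor AXL and matrix genes. ALB and VIM are therefore the usual first markers for sorting liver cancer lines into these classes.

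The values are FPKM, fragments scaled to transcript length and to library size, as the authors deposited them. Library totals were not used here. The FPKM worth 1 read per kilobase, read from the steps between low values, placed the 6 libraries at about 13100000 to 19200000 fragments, and 1 read was worth 0.0521 to 0.0762 FPKM for a transcript of 1 kilobase. Values of that order rest on single reads. Between 11400 and 12369 rows per library reached 1 FPKM. Differences are given as log2(FPKM + 1) of HLE and SK-HEP1 minus that of the other lines, with the standard error (SE), a scale that understates the difference of low genes.

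The library labelled Hep3b did not show the hepatocyte genes its label would carry. Its ALB level was 0.951 FPKM, beside 701, 70.5 and 887 in Huh1, Huh7 and HepG2, and 0.727 and 0.720 in HLE and SK-HEP1. HNF4A stood at 0.446 FPKM and the cadherin CDH1 at 0.109, and the other 3 libraries from that line held 0.368 to 0.790 FPKM of HNF4A. It alone was high in the imprinted RNA H19 (1138 FPKM, at most 2.60 elsewhere at rest), in FOXF1 (14.5, at most 0.195) and in decorin, DCN (14.5, at most 0.909). Over the 13462 genes tested its log2 levels correlated best with HLE (r = 0.823) and SK-HEP1 (r = 0.808), and less with Huh1 (0.783), Huh7 (0.729) and HepG2 (0.693). These are correlations across genes, which are not independent replicates. It is called "the library labelled Hep3b" below, it stays in the group its label gives, and counts of calls and adjusted p-values are given with it and, where the call turned on it, without it. Because it was doubted for its low hepatocyte genes, the calls gained for such genes without it follow in part from that choice and are no independent evidence.

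A doubt of another kind touches the pair. The library labelled HLE held 0.108 FPKM of CDKN2A, 0.0140 of CDKN2B and 0.261 of the neighbouring MTAP, and that labelled SK-HEP1 held 76.9, 2.00 and 10.9. The same held in all 4 conditions, with CDKN2A at 0.108 to 0.483 and 46.5 to 76.9 FPKM. SK-HEP1 is the line generally described as having lost CDKN2A. The comparison of the pair with the other lines does not depend on which of the 2 is which, and statements on one of them go by its label. FOXF1, H19, CDKN2B and MTAP in these checks, and TF, FGB, AFP, NR1H3, GATA4, CPS1, CALD1, TAGLN, ZEB1, COL6A1 and COL5A1 in what follows, fall outside the rule for named genes and were chosen after their values were seen.

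**Figure D1:**
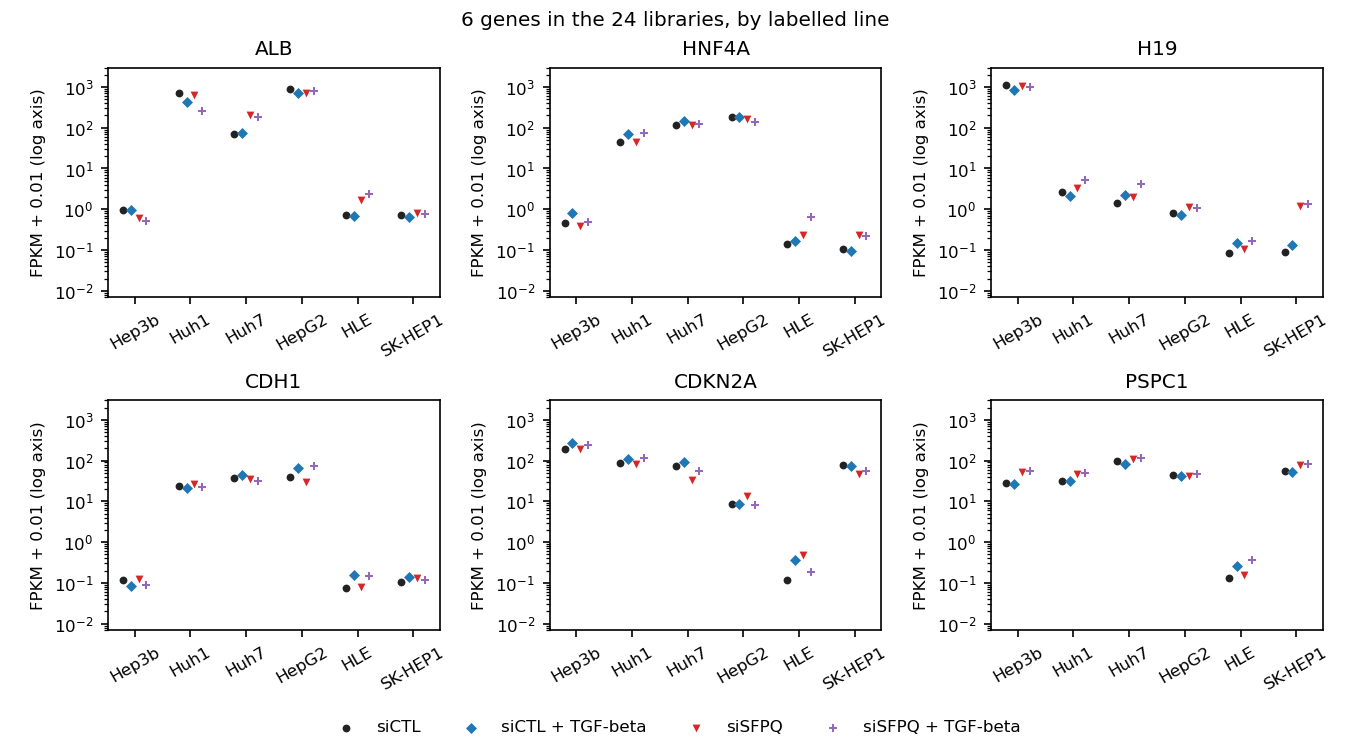
Levels of ALB, HNF4A, H19, CDH1, CDKN2A and PSPC1 in the 24 libraries, as FPKM + 0.01 on a log axis, with 1 column of points per labelled line and 1 symbol per condition. ALB, HNF4A and CDH1 were low in the 4 libraries labelled Hep3b as well as in HLE and SK-HEP1, and CDKN2A and PSPC1 were near 0 in the 4 libraries labelled HLE.

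Of the 13462 genes tested with all 6 libraries, 34 (0.253%) differed: 22 were higher in HLE and SK-HEP1 (0.163%) and 12 lower (0.0891%) at an adjusted p under 0.05 by limma, and 1532 had an unadjusted p under 0.05. A gene past the first threshold is called below. The pair lay above all 4 other libraries, with no overlap, for 11.7% of the genes and below them for 13.2%, and it did so by at least 2-fold on the FPKM + 1 scale for 1.66% and 1.59%. Without the library labelled Hep3b, 84 of 13157 genes were called higher (0.638%) and 113 lower (0.859%), and the pair lay at least 2-fold above the 3 lines for 2.97% and below them for 4.77%. All 34 genes called with 4 libraries were among these 197 (1.5%). The count rested on single libraries: leaving out Huh1 gave 3 higher and 4 lower, Huh7 7 and 5, and HepG2, HLE or SK-HEP1 0 and 0 by limma, where 1364, 805 and 664 genes stayed under an unadjusted p of 0.05.

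**Figure D2:**
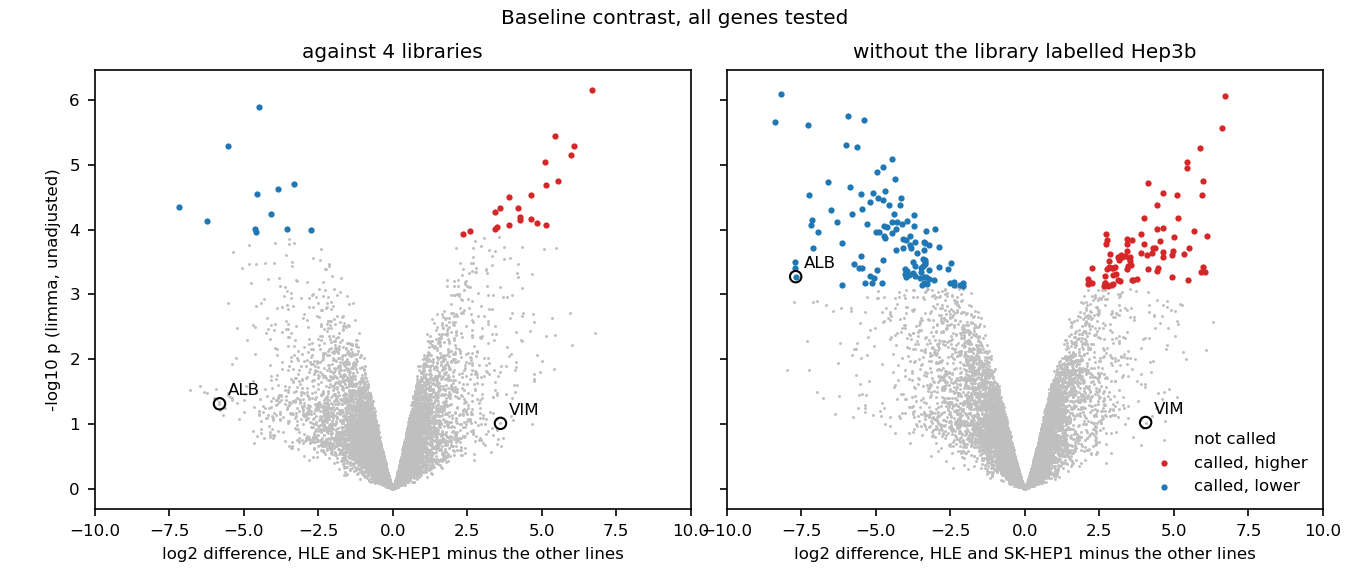
Unadjusted limma p (as -log10, y axis) against the log2 difference of HLE and SK-HEP1 from the other lines (x axis) for every gene tested, with all 6 libraries (left) and without the library labelled Hep3b (right). Called genes are coloured, 34 on the left and 197 on the right, and circles mark ALB, called only on the right, and VIM, called on neither side.

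The start region of ALB opens the account of the liver genes, since ALB separated Huh1, Huh7 and HepG2 from the pair. Shown beside it is that of FGA, the fibrinogen alpha chain, the one other called plasma protein gene whose window held the motif searched, and that of VIM for contrast. Each run is the 250 bases before the start site, 5′ to 3′ on the strand of the gene, from RefSeq on GRCh38.p14. They lie at chr4:73404037-73404286 on the plus strand (ALB), chr4:154590743-154590992 on the minus strand (FGA) and chr10:17227991-17228240 on the plus strand (VIM). Capitals mark the motif GTTAAT, which is known from liver promoters, searched on both strands and therefore also as ATTAAC.
ALB: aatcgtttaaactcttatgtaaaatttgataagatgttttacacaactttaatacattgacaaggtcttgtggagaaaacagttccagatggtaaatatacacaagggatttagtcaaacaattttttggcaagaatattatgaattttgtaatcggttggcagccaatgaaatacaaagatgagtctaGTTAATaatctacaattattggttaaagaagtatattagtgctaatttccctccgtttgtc
FGA: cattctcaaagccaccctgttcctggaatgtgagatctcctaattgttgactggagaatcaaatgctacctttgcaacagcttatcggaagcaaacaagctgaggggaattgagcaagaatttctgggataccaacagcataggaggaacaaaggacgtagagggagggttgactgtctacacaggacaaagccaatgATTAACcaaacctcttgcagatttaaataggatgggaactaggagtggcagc
VIM: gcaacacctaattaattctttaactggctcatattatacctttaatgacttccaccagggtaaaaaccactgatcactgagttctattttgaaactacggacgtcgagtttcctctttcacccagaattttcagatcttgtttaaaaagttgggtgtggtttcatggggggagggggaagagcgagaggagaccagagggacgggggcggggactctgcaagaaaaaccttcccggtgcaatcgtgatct
The motif begins 61 bases before the start site in ALB and 52 bases before it in FGA, and the VIM window holds none. Among windows of this length for all genes in the table, 6.23% of 35116 hold it. The share was 21.4% of the 42 windows of plasma protein genes, matched for 32 of 44 members, 14.8% of 27 windows of hepatocyte transcription factor genes and 1.61% of 62 windows of mesenchymal genes. A match is a description of letters and says nothing of binding.

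Plasma proteins were the list that lay lowest in the pair. ALB measured 701, 70.5 and 887 FPKM in Huh1, Huh7 and HepG2, 0.951 in the library labelled Hep3b, and 0.727 and 0.720 in HLE and SK-HEP1. Huh7 was well below Huh1 and HepG2, and the library labelled Hep3b was level with the pair. The log2 difference was -5.81 (SE 2.40, limma adjusted p = 0.435) with all 6 libraries and -7.68 (SE 1.11, adjusted p = 0.0434) without that library. In bulk RNA, fewer cells that make a transcript and less of it per cell cannot be told apart.

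Of 44 plasma protein genes 40 passed the filter, their median difference was -4.01 against -0.04 over all genes tested, and 1 was called lower where 0.0891% of all genes were. The 4 that were not tested reached 1 FPKM in fewer than 2 libraries. In the fit that left out the library labelled Hep3b, 8 of 40 were called lower (0.859% of all genes), the median was -5.42 beside -0.02, and 32 of 40 lay below the other 3 lines with no overlap (20.1% of all genes).

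AMBP, the precursor of alpha-1-microglobulin and bikunin, measured 323, 748 and 715 FPKM in Huh1, Huh7 and HepG2, 1.78 in the library labelled Hep3b, and 0.542 and 0.797 in HLE and SK-HEP1. RBP4, the retinol carrier, measured 353, 394 and 647 FPKM in Huh1, Huh7 and HepG2, 0.951 in the library labelled Hep3b, and 0.636 and 0.451 in HLE and SK-HEP1. Both were near or below 1 FPKM in the pair and far above that in each of Huh1, Huh7 and HepG2, with log2 differences of -8.39 (SE 0.47, limma adjusted p = 0.00507) and -8.19 (SE 0.38, adjusted p = 0.00507) without the library labelled Hep3b. With that library the adjusted p-values were 0.364 and 0.392.

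The fibrinogen chains FGA and FGG followed. FGA measured 93.5, 371 and 132 FPKM in Huh1, Huh7 and HepG2, 0.50 in the library labelled Hep3b, and 0.0511 and 0.190 in HLE and SK-HEP1, and FGG 86.2, 490.4 and 182 FPKM in Huh1, Huh7 and HepG2 against 0.176 and 0.635 in the pair. The third chain, FGB, broke this pattern in part, since SK-HEP1 held 6.58 FPKM where HepG2 held 11.9. FGA and FGG were called without the library labelled Hep3b (-7.23, SE 0.62, limma adjusted p = 0.0144, and -7.16, SE 0.74, adjusted p = 0.0228) and FGB was not (adjusted p = 0.223). With all 6 libraries none of the 3 was called (adjusted p = 0.393, 0.407 and 0.579).

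Angiotensinogen (AGT), the source of angiotensin, and APOA2, a protein of high-density lipoprotein, were called too, only without the library labelled Hep3b. AGT stood at 112, 92.3 and 435 FPKM in Huh1, Huh7 and HepG2, 0.395 in the library labelled Hep3b and 0.172 and 0.206 in the pair (-7.13, SE 0.71, limma adjusted p = 0.0218 without the library labelled Hep3b, 0.413 with it). APOA2 stood at 303, 332 and 2779 FPKM, and at 2.56 in the library labelled Hep3b and 2.28 and 2.02 in the pair (-7.70, SE 1.01, adjusted p = 0.0351 without it, 0.430 with it). APOA1, the main protein of high-density lipoprotein, was not called (adjusted p = 0.350 without that library, 0.593 with it). It measured 4.56, 1948 and 4939.9 FPKM in Huh1, Huh7 and HepG2, 2.35 in the library labelled Hep3b, and 3.18 and 4.01 in HLE and SK-HEP1, with Huh1 near the pair.

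Transferrin (TF, 79.6, 844 and 2122 FPKM against 1.35 and 1.60), the antiprotease SERPINA1 (196, 1140.2 and 2623 against 18 and 4.03) and apolipoprotein E (APOE, 205, 1379 and 1472 against 42.8 and 1.39) did not pass the test either, with adjusted p-values of 0.0618, 0.0707 and 0.116 without the library labelled Hep3b and 0.453, 0.549 and 0.537 with it. HLE kept more SERPINA1 and APOE than SK-HEP1. Summed over the 44 members, FPKM came to 98.4 in the library labelled Hep3b, 3412 in Huh1, 11165 in Huh7, 26901 in HepG2, 104 in HLE and 73.0 in SK-HEP1. Huh1, Huh7 and HepG2 thus differed widely among themselves, and the other 3 libraries lay far below the lowest of them.

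Coagulation and complement genes also lay low in the pair. Of 35 members 28 were tested, all 28 with a difference below 0, a median of -2.79, and 1 called (0.0891% of all genes). That one was PROS1, the anticoagulant protein S, which measured 48.2, 39.8 and 28.7 FPKM in Huh1, Huh7 and HepG2, 27.3 in the library labelled Hep3b, and 4.60 and 4.11 in HLE and SK-HEP1 (-2.75, SE 0.34, limma adjusted p = 0.0443). C3 and CFI were called as well once the library labelled Hep3b was left out, which makes 3 of 28 where 0.859% of all genes were called lower.

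C3, the central complement protein, stood at 269, 529 and 1095 FPKM in Huh1, Huh7 and HepG2, 10.6 in the library labelled Hep3b, and 7.66 and 4.45 in HLE and SK-HEP1 (-6.29, SE 0.64, limma adjusted p = 0.0218 without the library labelled Hep3b, 0.361 with it). CFI, the protease that cuts C3b, stood at 14.9, 41.2 and 91.6 FPKM in Huh1, Huh7 and HepG2 and at most at 0.128 in the other 3 libraries (-5.19, SE 0.75, adjusted p = 0.0430 without that library, 0.439 with it). Of the uncalled members with the highest levels, C4BPB, a chain of the C4b-binding protein, was highest in the library labelled Hep3b (252 FPKM, 1.37 and 0.219 in the pair, adjusted p = 0.250), and the protease C1S measured 8.30 to 118 FPKM in the 4 against 1.44 and 0.188. CPB2, an inhibitor of clot breakdown, was under 0.1 FPKM in both lines of the pair and stood at 4.50, 6.14 and 10.3 in Huh1, Huh7 and HepG2 (adjusted p = 0.0572 without the library labelled Hep3b, 0.452 with it).

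The hepatocyte transcription factors were low together. All 27 members were tested, 26 had a difference below 0, and the median was -2.12. None was called by limma with all 6 libraries, where 1 had an adjusted p under 0.1 (NR1H3, the oxysterol receptor, -2.12, adjusted p = 0.0658). Leaving out the library labelled Hep3b, 7 were called lower (0.859% of all genes), and 25 of 27 lay below the 3 lines with no overlap (20.1% of all genes), 22 of them by at least 2-fold (4.77% of all genes).

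HNF4A, the nuclear receptor at the centre of the network, measured 45.5, 114 and 187 FPKM in Huh1, Huh7 and HepG2, 0.446 in the library labelled Hep3b, and 0.131 and 0.0984 in HLE and SK-HEP1 (-6.49, SE 0.62, limma adjusted p = 0.0184 without the library labelled Hep3b, and 0.398 with it). All 3 lines were high in HNF4A, and the other 3 libraries were all near 0.

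The pioneer factors FOXA2 and FOXA1, PROX1, the secreted-protein regulator CREB3L3 and CEBPA were also called without the library labelled Hep3b. FOXA2 stood at 20.9, 41.7 and 43.1 FPKM in the 3 lines and at 0.0232 and 0.0246 in the pair (-5.08, SE 0.44, limma adjusted p = 0.0144 without that library, 0.413 with it). CEBPA stood at 29.6, 114 and 174 FPKM in Huh1, Huh7 and HepG2, 7.48 in the library labelled Hep3b, and 0.622 and 0.616 in HLE and SK-HEP1 (-5.72, SE 0.76, adjusted p = 0.0357 without it, 0.204 with it). CEBPA and FOXA1 (3.75 FPKM) were called factors of which the library labelled Hep3b kept over 1 FPKM.

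The uncalled members with the highest levels were less far apart. CEBPB, an inducible member of the CEBP family, stood between 34.8 and 168 FPKM in the 6 libraries, with the pair at 60.5 and 58.9. HHEX, a homeodomain factor of early liver, stood at 10.8 and 16 FPKM in the pair and 6.21 to 74.3 elsewhere, and CEBPD at 17.9 and 23.8 against 33 to 197 (limma adjusted p = 0.662 and 0.509). The nuclear receptors NR1H4, which senses bile acids, NR1I2, which senses drugs, NR0B2 and HNF4G were under 0.1 FPKM in both lines of the pair and over 1 FPKM in Huh1, Huh7 and HepG2. The library labelled Hep3b was low in them too, at 0.177 FPKM of HNF4G and less of the others. None was called by limma, with a lowest adjusted p of 0.0726 without that library and 0.437 with it, both for HNF4G. GATA4 still measured 7.26 and 2.79 FPKM in the pair.

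**Figure D3:**
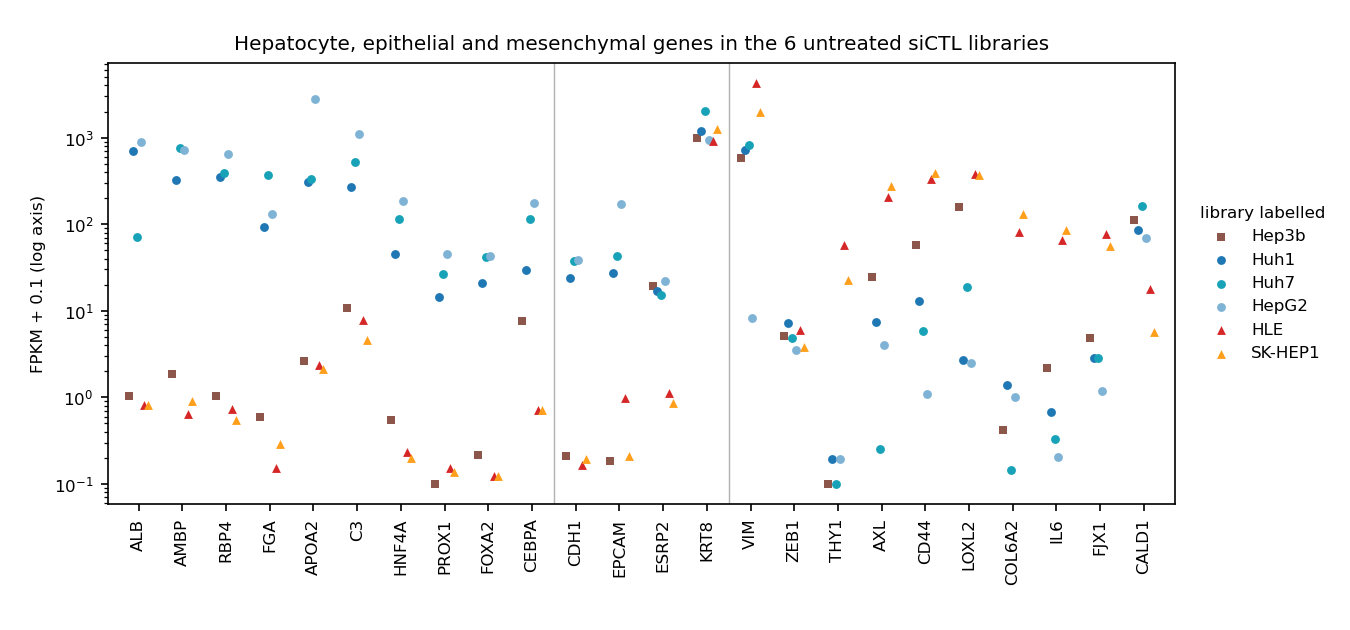
FPKM + 0.1 on a log axis of 24 genes in the 6 untreated siCTL libraries, 1 point per library, with hepatocyte genes on the left, epithelial genes in the middle and mesenchymal, matrix and cytokine genes on the right. The library labelled Hep3b lies with HLE and SK-HEP1 for ALB (0.951 FPKM) and HNF4A and with the other lines for ESRP2 (19) and COL6A2 (0.315), and HepG2 alone is low in VIM (8.08).

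Metabolic genes of the hepatocyte were lower by less. The median difference was -1.68 for 34 tested drug metabolism genes, -1.44 for 30 of the urea cycle and amino acid breakdown, -1.39 for 17 of bile acid synthesis and transport, -1.38 for 26 of lipid handling and -1.73 for 9 of glucose, fructose and glycogen use. The one gene of these lists called with all 6 libraries, where 0.0891% of all genes were called lower, was ASS1, argininosuccinate synthase of the urea cycle. It measured 101, 53.5 and 140.3 FPKM in Huh1, Huh7 and HepG2, 305 in the library labelled Hep3b, and 1.55 and 0.103 in HLE and SK-HEP1 (-6.21, SE 0.71, limma adjusted p = 0.0436).

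HGD and SLCO2B1 joined ASS1 when the library labelled Hep3b was left out, where 0.859% of all genes were called lower. HGD, homogentisate dioxygenase of tyrosine breakdown, measured 68.9, 63.8 and 50.7 FPKM in Huh1, Huh7 and HepG2, 0.0347 in the library labelled Hep3b, and 0 and 0.0301 in HLE and SK-HEP1 (-5.92, SE 0.32, limma adjusted p = 0.00507 without that library, 0.413 with it). SLCO2B1, an uptake transporter, stood at 61.4, 15.3 and 21.1 FPKM in the 3 lines and at 0.0668 and 0 in the pair (-4.77, SE 0.63, adjusted p = 0.0341 without it, 0.435 with it). None of the drug metabolism, lipid or glucose genes was called by limma in either fit.

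The metabolic genes with the highest levels differed from list to list. The drug enzyme EPHX1 measured 8.96 and 14.4 FPKM in the pair against 41.0 to 239 and the P450 reductase POR 23.7 and 32.7 against 57.7 to 132 (limma adjusted p = 0.243 and 0.227). Argininosuccinate lyase (ASL), the step after ASS1, did not follow it, with 27.4 and 24.7 FPKM in the pair and 13.7 to 40.5 elsewhere. The peroxisomal enzymes of bile acid synthesis, SCP2 (32.3 and 30.7 FPKM against 29.8 to 73.5) and HSD17B4 (32.3 and 46.4 against 43 to 104), lay near the level of the other lines. GSTP1, the glutathione transferase that liver normally lacks, was at 322 and 395 FPKM in the pair, and at 3.26, 1379 and 1.44 in Huh1, Huh7 and HepG2 and 585 in the library labelled Hep3b. MTTP, which loads lipid onto apolipoprotein B, stood at 7.86, 162 and 42.2 FPKM in the 3 lines and 0.0132 and 0.0560 in the pair (adjusted p = 0.104 without the library labelled Hep3b, 0.469 with it).

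The 3 hepatocyte-like lines lacked parts of this metabolism themselves. CPS1, the first enzyme of the urea cycle, was highest in the library labelled Hep3b at 688 FPKM and reached only 2.51, 3.64 and 9.32 FPKM in Huh1, Huh7 and HepG2. For many steps the liver uses an enzyme of its own where other tissues use a relative. Liver glycogen synthase GYS2 did not exceed 0.384 FPKM in any of the 6 libraries.

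The other gene pairs gave a mixed picture. The liver fatty acid binding protein FABP1 measured 14.3, 919.7 and 337 FPKM in Huh1, Huh7 and HepG2, 0.698 in the library labelled Hep3b, and 0 and 0.152 in HLE and SK-HEP1, and its relative FABP5 35.3 to 213 FPKM across the 6. MAT1A, the liver methionine adenosyltransferase, stood at 3.82, 1.55 and 47.8 FPKM in the 3 lines and 0.0640 and 0.0851 in the pair, where the general enzyme MAT2A stood at 321 and 152. The liver pyruvate kinase PKLR passed 1 FPKM only in HepG2 (15.4), and the general enzyme, listed as PKM2, ran from 440.1 FPKM in HepG2 to 1987 in HLE. The liver glycogen phosphorylase PYGL did not separate them at all, at 47.8 to 94.3 FPKM with the pair at 88.9 and 77.1.

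Many epithelial junction genes lay lower in the pair, and keratins 8 and 18 of simple epithelia did not. Of 48 members 42 were tested, the median difference was -1.78, and 1 was called lower with all 6 libraries (0.0891% of all genes). This was ESRP2, an epithelial splicing regulator, at 16.9, 14.9 and 21.9 FPKM in Huh1, Huh7 and HepG2, 19 in the library labelled Hep3b, and 1.03 and 0.770 in HLE and SK-HEP1 (-3.32, SE 0.31, limma adjusted p = 0.0276). ESRP2 was level in the 4 other libraries, and HLE and SK-HEP1 lay far below the lowest of them.

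Without the library labelled Hep3b, 6 of 41 tested members were called lower (0.859% of all genes), and 27 lay below the 3 lines with no overlap (20.1% of all genes). CDH1, the epithelial cadherin, measured 23.8, 37.9 and 38.9 FPKM in Huh1, Huh7 and HepG2, 0.109 in the library labelled Hep3b, and 0.0666 and 0.0945 in HLE and SK-HEP1 (-4.97, SE 0.38, limma adjusted p = 0.0114 without that library, 0.419 with it). SPINT1, an inhibitor of membrane proteases, stood at 43.8, 27.5 and 54.2 FPKM against 1.36 and 0.0512, CRB3, a polarity protein, at 21.2, 15.5 and 39.7 against 0.273 and 0, and EPCAM, an adhesion molecule of epithelia and progenitors, at 27.1, 42.3 and 170.4 against 0.880 and 0.108. The receptor ERBB3 was the sixth, at 7.20 and 4.99 FPKM in the pair and 39.0 to 89.2 in the 3 lines. With all 6 libraries SPINT1, CRB3, EPCAM and ERBB3 had limma adjusted p-values of 0.467, 0.366, 0.481 and 0.484. For CDH1, SPINT1 and EPCAM the library labelled Hep3b held under 0.2 FPKM.

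Among other junction genes, plakoglobin (JUP) measured 8.38 and 44.8 FPKM in the pair and 48.7 to 241 elsewhere, and claudin 1 (CLDN1) 19.6 and 143 against 1.00 to 226 (limma adjusted p = 0.332 and 0.993). The membrane protease ST14 and the tight junction protein TJP3 were under 0.1 FPKM in both lines of the pair and over 1 FPKM in all 4 others (adjusted p = 0.362 and 0.105). Keratin 8 (KRT8), by contrast, ran from 916 to 2046 FPKM over the 6 libraries and keratin 18 (KRT18) from 399 to 1229, with HLE and SK-HEP1 inside the range or at its edge.

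Mesenchymal genes were the list that lay highest in the pair. Of 57 members 53 were tested, 41 had a difference above 0, the median was 2.1, and 10 lay above all 4 other libraries by at least 2-fold (1.66% of all genes). One was called with all 6 libraries (0.163% of all genes), and it passed the filter only through the pair. THY1, a surface glycoprotein of mesenchymal and stromal cells, measured 0.0960, 0 and 0.0940 FPKM in Huh1, Huh7 and HepG2, 0 in the library labelled Hep3b, and 57.8 and 22.7 in HLE and SK-HEP1 (5.16, SE 0.49, limma adjusted p = 0.0276).

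Without the library labelled Hep3b 7 of 50 were called higher (0.638% of all genes). AXL, a receptor tyrosine kinase, measured 7.37, 0.150 and 3.91 FPKM in Huh1, Huh7 and HepG2, 24.2 in the library labelled Hep3b, and 205 and 277 in HLE and SK-HEP1 (6.05, SE 0.85, limma adjusted p = 0.0396 without that library, 0.149 with it). CD44, the hyaluronan receptor, measured 12.9, 5.73 and 0.999 FPKM in Huh1, Huh7 and HepG2, 57.0 in the library labelled Hep3b, and 335 and 392 in HLE and SK-HEP1 (5.99, SE 0.81, adjusted p = 0.0374 without it, 0.193 with it). The matrix crosslinking enzyme LOXL2 measured 2.61, 19 and 2.40 FPKM in Huh1, Huh7 and HepG2, 159.6 in the library labelled Hep3b, and 379.9 and 367 in HLE and SK-HEP1 (5.90, SE 0.83, adjusted p = 0.0391 without it, 0.332 with it). In all 3 genes the library labelled Hep3b stood between the pair and the other lines.

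The TGF-beta co-receptor endoglin (ENG) stood at 0.541, 0.176 and 3.27 FPKM in Huh1, Huh7 and HepG2, 44.3 in the library labelled Hep3b and 72.7 and 49.2 in the pair (4.94, SE 0.63, limma adjusted p = 0.0312 without that library, 0.397 with it). Transcription factors of the mesenchymal transition were among the calls. TWIST1 was at most 0.0352 FPKM in the 3 lines and at 6.41 and 10.0 in the pair, and ZEB2 at most 0.329 and at 8.75 and 7.09 (adjusted p = 0.0341 and 0.0374 without the library labelled Hep3b, which held 5.23 and 3.97, and 0.354 and 0.286 with it). ZEB1, the other ZEB factor, did not separate the lines: it ran from 3.44 to 7.07 FPKM, with the pair at 5.93 and 3.75.

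VIM was not called. It measured 727, 816 and 8.08 FPKM in Huh1, Huh7 and HepG2, 588 in the library labelled Hep3b, and 4266 and 1984 in HLE and SK-HEP1. The pair was highest, but Huh1, Huh7 and the library labelled Hep3b also held much VIM and HepG2 alone was low, and the difference of 3.61 (SE 1.87) had a limma adjusted p of 0.511, or 4.05 (SE 2.03, adjusted p = 0.389) without the library labelled Hep3b.

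Several genes named as mesenchymal lay the other way. CALD1, the actin-binding caldesmon, measured 85.5, 163 and 69.7 FPKM in Huh1, Huh7 and HepG2, 111 in the library labelled Hep3b, and 17.6 and 5.58 in HLE and SK-HEP1, below the 4 with no overlap (limma adjusted p = 0.0838). CDH2, the cadherin usually paired against CDH1, measured 11.9 and 0.562 FPKM in HLE and SK-HEP1 and 18.2 to 31.3 elsewhere (adjusted p = 0.296), so SK-HEP1 held almost neither cadherin. Fibronectin (FN1), which hepatocytes also secrete, stood at 1621, 823 and 2327 FPKM in the 3 lines, 186 in HLE and 4.68 in SK-HEP1 (adjusted p = 0.444). Of the most abundant members, LGALS1, a galectin, measured 2303 and 1527 FPKM in the pair and 7.66 to 994 elsewhere, and S100A6 1426 and 1462 against 56.6 to 4734 (adjusted p = 0.558 and 0.700). The integrin chain ITGB1 was at 371 and 546 FPKM against 115 to 277 (adjusted p = 0.398). TAGLN, a smooth muscle actin-binding protein, was at 24.1 and 49.1 FPKM in the pair and at 18.7 to 164 elsewhere.

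Matrix genes lay close to the other genes in their median, which was 0.38 over the 47 tested of 58. The pair lay above all 4 other libraries by at least 2-fold for 10.6% of them (1.66% of all genes). It lay below them by as much for 2.13% (1.59% of all genes). Without the library labelled Hep3b these shares were 20.5% (2.97% of all genes) and 4.55% (4.77%). The share above includes POSTN, which passed the filter only through the pair. With all 6 libraries 1 matrix gene was called (0.163% of all genes higher). The type VI collagen chain COL6A2 measured 1.29, 0.0466 and 0.923 FPKM in Huh1, Huh7 and HepG2, 0.315 in the library labelled Hep3b, and 81.9 and 132 in HLE and SK-HEP1 (6.06, SE 0.46, limma adjusted p = 0.0137). Its partner chain COL6A1 stood at 29.9 and 109 FPKM against at most 4.24 and did not pass the test (adjusted p = 0.0647).

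FN1, given above, was among the uncalled matrix genes with the highest levels and lay lower in the pair than in Huh1, Huh7 and HepG2. Another was the proteoglycan agrin (AGRN), at 111 and 84.5 FPKM in the pair and 59.9 to 89.7 elsewhere. The laminin chain LAMB1 stood at 119 and 138 against 28.4 to 117, and TGFBI at 2.23 in HLE, 332 in SK-HEP1 and 90.8 to 387 elsewhere. None of these passed the test (limma adjusted p = 0.634, 0.549 and 0.572). The fibrillar collagens COL3A1, COL5A1 and COL1A1 were highest in the library labelled Hep3b, at 99.1, 147 and 15.5 FPKM. COL3A1 measured 0.266, 0.256 and 0.0975 FPKM in Huh1, Huh7 and HepG2 and 4.94 and 53.6 in HLE and SK-HEP1. Without the library labelled Hep3b the pair thus lay above the other lines in COL3A1 with no overlap, and the gene was not called (limma adjusted p = 0.125).

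**Figure D4:**
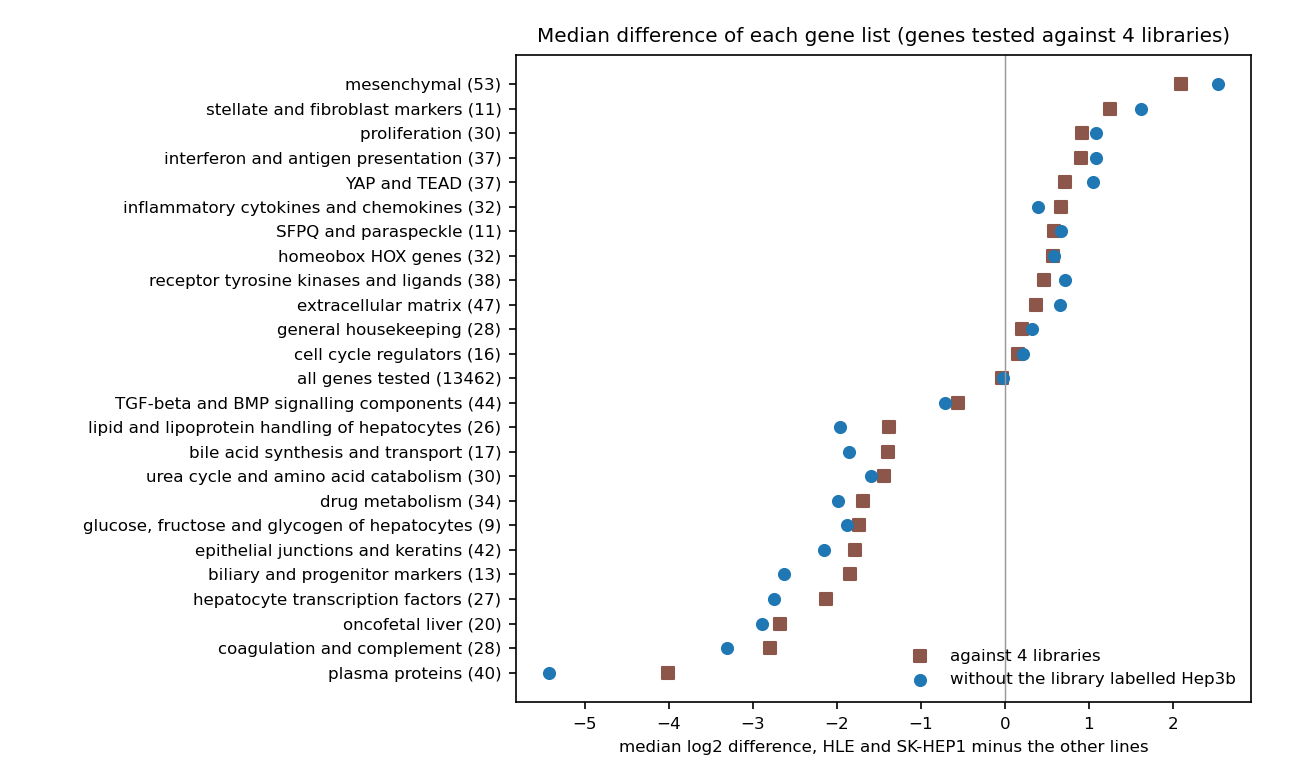
Median log2 difference of HLE and SK-HEP1 from the other lines for each gene list with at least 9 tested members and for all genes tested, with all 6 libraries (squares) and without the library labelled Hep3b (circles), and the number of members tested in brackets. Plasma proteins lie lowest at -4.01 and -5.42, and mesenchymal genes highest at 2.1 and 2.54.

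Genes of the YAP and TEAD pathway, which answers to cell shape and contact, had a median of 0.71 over 37 tested of 39, and 15 lay above all other libraries with no overlap (11.7% of all genes). FJX1, a YAP target that encodes a secreted inhibitor of dendrite growth, was the 1 called where 0.163% of all genes were, at 2.77, 2.73 and 1.10 FPKM in Huh1, Huh7 and HepG2, 4.74 in the library labelled Hep3b, and 77.7 and 56.4 in HLE and SK-HEP1 (4.22, SE 0.45, limma adjusted p = 0.0367). CYR61, the best known YAP target in the list, measured 404 and 161 FPKM in the pair and 13.2 to 29.8 elsewhere, and the upstream regulator NF2 measured 65.8 and 46.3 against 11 to 13.8. Both had adjusted p-values of 0.0537 and 0.0537 with all 6 libraries and 0.0457 and 0.0487 without the library labelled Hep3b. The coactivator YAP1 itself was at 36.1 and 43.1 FPKM in the pair and 27.7 to 198 elsewhere.

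Of 38 tested receptor tyrosine kinases and their ligands, 14 lay above all other libraries (11.7% of all genes) and 7 below them, or 18.4%, which is not far from the 13.2% of all genes. None was called by limma with all 6 libraries. The ligands VEGFC, of lymphatic vessel growth, and HBEGF, of the EGF receptor, were called higher without the library labelled Hep3b (0.638% of all genes). VEGFC stood at 12.2 and 46.2 FPKM against at most 1.44 (adjusted p = 0.0738 with all 6 libraries and 0.0388 without the library labelled Hep3b) and HBEGF at 18.7 and 48.5 against at most 2.75 (0.0614 and 0.0458).

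The stem cell factor receptor KIT was at or under 0.0830 FPKM in the 4 other libraries and at 4.74 and 45.7 in HLE and SK-HEP1 (limma adjusted p = 0.139). The receptors with the highest levels were MET, the receptor of hepatocyte growth factor, at 80.6 and 113 FPKM against 20.4 to 49.9, EPHA2, at 132 and 140.3 against 22.9 to 66.9, and EGFR, at 56.8 and 69.4 against 3.99 to 95.3 (adjusted p = 0.253, 0.250 and 0.727). FGFR4, the FGF19 receptor of hepatocytes, was at 17.2 FPKM in HLE, as in the library labelled Hep3b (16), and at 2.46 in SK-HEP1.

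TGF-beta and BMP pathway components had a median of -0.56 over 44 tested of 50, with none called by limma with all 6 libraries. Below all other libraries lay 7 of them, or 15.9%, close to the 13.2% of all genes. ID1 and ID3, direct BMP targets, were 2 of these: ID1 stood at 25.8 and 152 FPKM in the pair against 162 to 672, and ID3 at 8.02 and 57.9 against 88.4 to 229 (adjusted p = 0.316 and 0.280). ID2 and the stress-induced ligand GDF15 overlapped, with 37.9 and 39.6 FPKM of ID2 in the pair and 20.3 to 248 elsewhere. ENG was the member called without the library labelled Hep3b, where 0.638% of all genes were called higher.

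Cytokines split between the sides. Of 32 tested, 1 was called higher with all 6 libraries (0.163% of all genes). Without the library labelled Hep3b 1 was called higher (0.638%) and 3 lower (0.859%). IL6, the cytokine that drives the acute phase response of hepatocytes, was called higher in the pair, at 0.573, 0.231 and 0.105 FPKM in Huh1, Huh7 and HepG2, 2.11 in the library labelled Hep3b, and 65.4 and 84.5 in HLE and SK-HEP1 (5.55, SE 0.51, limma adjusted p = 0.0276). SOD2, a mitochondrial enzyme induced by cytokines, ran from 69.3 to 1089 FPKM in the 4, with the pair at 142 and 181, and the cytokine IL32 from 10.4 to 636, with 36.1 and 129 (adjusted p = 0.712 and 0.774). CCL20, IL1R1 and LCN2 were called lower only without the library labelled Hep3b: CCL20, a chemokine, measured 134, 400.2 and 139.7 FPKM in the 3 lines and 0.565 and 3.94 in the pair (adjusted p = 0.0267, and 0.474 with that library), and IL1R1, the interleukin 1 receptor, 19.2, 13.6 and 22.7 against 1.32 and 0.845 (adjusted p = 0.0270, and 0.439 with it).

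Proliferation genes lay mostly above 0, without any call by limma in either fit. All 30 members were tested, 28 had a difference above 0, with a median of 0.92, and 11 lay above all other libraries (11.7% of all genes). TOP2A, the topoisomerase of dividing cells, measured 135 and 141 FPKM in the pair against 23.4 to 102, and the replication clamp PCNA 128 and 192 against 43.3 to 151 (limma adjusted p = 0.526 and 0.600). General housekeeping genes had a median of 0.20 over 28 members, interferon and antigen presentation genes 0.91 over 37, HOX genes 0.58 over 32 and cell cycle regulators 0.16 over 16, with no call by limma in any of them in either fit.

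Paraspeckle genes, which include the target of the study's knockdown, had a median of 0.59 over 11 members and no call in either fit. SFPQ itself measured 90.4, 198 and 103 FPKM in Huh1, Huh7 and HepG2, 167 in the library labelled Hep3b, and 247 and 185 in HLE and SK-HEP1 (difference 0.69, SE 0.42, limma adjusted p = 0.562), so the groups overlapped in it. PSPC1, a close relative of SFPQ that pairs with it, was at 0.123 FPKM in the library labelled HLE and at 54.8 in that labelled SK-HEP1, beside 27.8 to 95.4 in the other 4. PSPC1 stayed at 0.346 FPKM or less in all 4 conditions of HLE.

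The strongest calls were mostly outside these lists. WNT5B, a ligand of non-canonical WNT signalling, had the largest rise of the called genes, at 0.390, 0.342 and 0.442 FPKM in Huh1, Huh7 and HepG2, 0.222 in the library labelled Hep3b, and 102 and 182 in HLE and SK-HEP1 (6.67, SE 0.38, limma adjusted p = 0.00876). FLNC, an actin crosslinker of muscle, measured 0.501, 2.58 and 0.741 FPKM in Huh1, Huh7 and HepG2, 0.856 in the library labelled Hep3b, and 94.2 and 173 in HLE and SK-HEP1 (5.98, adjusted p = 0.0158). SHISA2, which holds FGF and WNT receptors inside the cell, measured 0.183, 0.224 and 0.288 FPKM in Huh1, Huh7 and HepG2, 0.163 in the library labelled Hep3b, and 41.3 and 64.8 in HLE and SK-HEP1 (5.44, adjusted p = 0.0137). Each of these was near 1 FPKM or lower in all 4 other libraries, apart from FLNC at 2.58 in Huh7, and the library labelled Hep3b was level with Huh1, Huh7 and HepG2 in them.

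KCNMA1, a calcium-activated potassium channel, rose from at most 0.0524 FPKM to 25.7 and 46.9, and MARCH4, a membrane-bound ubiquitin ligase, from at most 0.132 to 38.4 and 16.8 (limma adjusted p = 0.0171 and 0.0300). PTX3, a secreted pattern recognition protein, stood at 40.3 and 63.9 FPKM against at most 2.43, in Huh7 (adjusted p = 0.0439). AFAP1L2, an adaptor of SRC signalling, stood at 14.2 and 44.8 against at most 0.131, and CNRIP1, which binds the cannabinoid receptor, at 31.6 and 12.6 against at most 0.196 (adjusted p = 0.0436 and 0.0423). All of them passed the test with and without the library labelled Hep3b.

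S100P, a calcium-binding protein, had the largest fall of the called genes. It measured 475, 62.0 and 244 FPKM in Huh1, Huh7 and HepG2, 232 in the library labelled Hep3b, and 0.502 and 0.356 in HLE and SK-HEP1 (-7.16, SE 0.76, limma adjusted p = 0.0367). GCHFR, the feedback regulator of tetrahydrobiopterin synthesis, had the lowest adjusted p of the falls, at 60.0, 73.4 and 63.0 FPKM in Huh1, Huh7 and HepG2, 72.8 in the library labelled Hep3b, and 2.41 and 1.71 in HLE and SK-HEP1 (-4.48, SE 0.28, adjusted p = 0.00876). LRRC61, a leucine-rich repeat protein, stood at 29.3 to 76.9 FPKM in the 4 and at 0.0322 and 0 in HLE and SK-HEP1 (adjusted p = 0.0137).

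Further falls called with all 6 libraries were in genes that the library labelled Hep3b shared with Huh1, Huh7 and HepG2. MGST2, a membrane glutathione transferase, stood at 40.9 to 110.5 FPKM in the 4 and at 2.13 and 1.46 in the pair, and SELENBP1, a selenium-binding protein, at 13.4 to 54.4 and at 0 in both (limma adjusted p = 0.0300 and 0.0443). PTPN6, a phosphatase best known from blood cells, stood at 11.1 to 19.6 FPKM in the 4 and at 0.131 and 0 in the pair, and EPPK1, the plakin epiplakin, at 11 to 27.6 and at 0.0630 and 0.0149 (adjusted p = 0.0293 and 0.0408). PTGFRN, a partner of tetraspanins, stood at 10.7 to 23.6 FPKM in the 4 and 0.456 and 0.439 in the pair (adjusted p = 0.0443).

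Among the calls that appeared only without the library labelled Hep3b, the largest rise was that of BASP1, a membrane-bound growth cone protein. It measured 0.926, 0.662 and 1.13 FPKM in Huh1, Huh7 and HepG2, 578 in the library labelled Hep3b, and 223 and 178 in HLE and SK-HEP1 (6.72, SE 0.32, limma adjusted p = 0.00507, and 0.513 with that library). The receptor GPRC5A (6.12), the TNF ligand CD70 (5.68) and the surface protein LY6K (5.52) rose in the same way, and all 3 were also high in the library labelled Hep3b, at 74.3, 116 and 75.9 FPKM. With all 6 libraries their limma adjusted p-values were 0.268, 0.501 and 0.487. The ubiquitin-like protein UBD (-7.28), the peroxidase GPX2 (-7.69), the asialoglycoprotein receptor chain ASGR2 (-6.94) and villin, VIL1 (-6.62) were among the largest falls outside the lists, and that library was under 1 FPKM in each (adjusted p = 0.398, 0.413, 0.433 and 0.417 with it).

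Markers of other cell types were checked in the same libraries. Of 22 endothelial markers 17 were too low to be tested, and of the defining ones PECAM1, CDH5, VWF, KDR, TEK, CLDN5 and ERG none exceeded 0.733 FPKM in any library or 0.182 in the pair. TIE1 reached 0.374 FPKM in HLE. Summed over the list, HLE came to 118 FPKM and SK-HEP1 to 68.7, beside 67 to 99.9 in the other 4. The members that departed from this were ENG, high in both lines, and ROBO4, at 13.3 FPKM in HLE and 0.135 in SK-HEP1. ICAM2 was lower in the pair (0.824 and 0.117 against 8.24 to 14.5 FPKM in the 3 lines, limma adjusted p = 0.0458 without the library labelled Hep3b, 0.476 with it).

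Stellate and fibroblast markers came to 90.7 FPKM in HLE and 182 in SK-HEP1 when summed over 19 members, beside 74.9 to 164 in the other 4. Of the 11 members tested, 8 had a difference above 0 and 3 below, with a median of 1.26. The pair lay above all 4 other libraries by at least 2-fold for 2 of them, THY1 and POSTN (18.2%, beside 1.66% of all genes). Both passed the filter only through the pair, so their being higher there follows from the filter and the share is no evidence. Of the defining markers DCN, LUM, DES and LRAT were under 1 FPKM in HLE and SK-HEP1, and PDGFRB was at 1.22 and 14.9 FPKM. COL3A1 stood at 4.94 and 53.6 FPKM in the pair and at 99.1 in the library labelled Hep3b. THY1, which is also in the mesenchymal list, was the member called, TCF21, a stellate cell factor, was at 10.8 FPKM in SK-HEP1 alone, and POSTN passed 1 FPKM in the pair alone, at 1.92 and 2.56. Immune markers PTPRC and CD3E were at 0 in both, and CD14 was at 4.76 FPKM in HLE. The immune marker sum was 61.3 FPKM in HLE, of which CD68 made 53.8, and 20.7 in SK-HEP1. It was 61.2 in Huh1, 601 in Huh7, 778 in HepG2 and 20.6 in the library labelled Hep3b.

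Of the biliary and progenitor markers, KRT7 was at 27.5 and 28.2 FPKM in the pair and at 0.894 to 696 elsewhere, and KRT19 at 149 in HLE and 0.731 in SK-HEP1. SOX9 stood at 41.3 and 5.28 FPKM, SPP1 at 69.9 and 8.10, and CFTR at 0 in both. The list had 13 of 16 members tested and a median of -1.84. Oncofetal liver genes had a median of -2.68 over 20 tested of 22. Alpha-fetoprotein (AFP) measured 23.3, 8400.3 and 187 FPKM in Huh1, Huh7 and HepG2, 12.7 in the library labelled Hep3b, and 0.672 and 0.0894 in HLE and SK-HEP1. Midkine (MDK), a growth factor, stood at 374, 566 and 332 FPKM in the 3 lines, 2.02 in the library labelled Hep3b and 43.9 and 0.335 in the pair (limma adjusted p = 0.381 for AFP and 0.563 for MDK).

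HLE and SK-HEP1 were the most alike of the 15 pairs of libraries (r = 0.895 over 13462 genes), and still differed widely. Of 12998 rows with at least 1 FPKM in any of their 8 libraries, 915 (7.04%) were at least 2-fold higher in HLE on the FPKM + 1 scale in all 4 conditions and 527 (4.05%) in SK-HEP1. With 1 library per line and condition these are descriptions without a test. The granule proteoglycan serglycin (SRGN) measured 277 to 698 FPKM in the 4 libraries of HLE and 0.933 to 1.85 in those of SK-HEP1. Interleukin 1 beta (IL1B) measured 78.2 to 256 and 0.133 to 0.269, and the lactate transporter SLC16A3 246 to 396 and 1.02 to 1.36.

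G0S2, an inhibitor of lipid breakdown, the peptidase ANPEP, CRIP1, the basement membrane collagen COL4A2, the metalloproteinase inhibitor TIMP3, SCRN1 and the peroxidasin PXDN completed the 10 largest on the side of HLE. On the side of SK-HEP1 stood the aldehyde dehydrogenase ALDH1A1, at 263 to 325 FPKM against 0.648 to 2.07 in HLE, the collagen chain COL1A2, at 59.7 to 124 against 0.0743 to 0.406, and the connexin GJA1, at 77.6 to 108 against 0.116 to 0.50. The germline genes GTSF1, PAGE2, PAGE2B and CSAG1, the zinc finger protein CXXC5, PSPC1 and CDKN2A were the rest. CDKN2A encodes the CDK inhibitor p16.

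**Figure D5:**
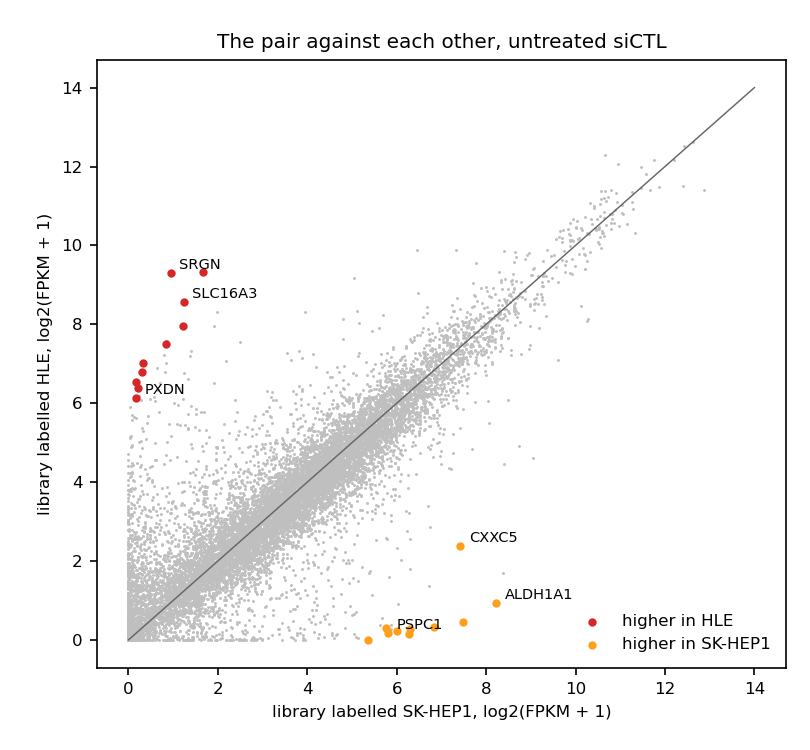
Levels in the library labelled HLE (y axis) against that labelled SK-HEP1 (x axis), untreated siCTL, as log2(FPKM + 1), with 1 grey point per gene tested and the line of equal levels. The 10 genes on each side with the largest difference kept over the 4 conditions are coloured, among them SRGN in HLE and PSPC1 in SK-HEP1.

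The separation of the pair from the other lines was mostly kept when the same lines were treated. Of the 224 genes at least 2-fold above all 4 other libraries at rest, 222 had no overlap with siCTL and TGF-beta, 210 with siSFPQ, 200 with both, and 199 in all 3 conditions. Of the 214 genes below, 200 kept it in all 3. All 34 called genes did. Any gap counted here, where the 224 and 214 genes had been chosen by a 2-fold gap, and the share over all genes was not counted. By limma 25 of the 34 were still called with siCTL and TGF-beta, 21 with siSFPQ and 11 with both. These libraries come from the same lines, so they show how stable each line's state was and are no new replicates of the comparison.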

How the data were processed

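PolyA RNA of 6 liver cancer lines was sequenced, 1 library per line and condition, and the 6 untreated siCTL libraries were compared here. Reads were aligned with TopHat2 2.1.1 and quantified with Cufflinks 2.2.1 on hg19, per the submitters' processing notes. Neither the annotation nor the settings used are given in the sources used here. The authors deposited FPKM values in 1 table, which its name calls raw counts; 2 empty columns were not used. Rows of short RNAs (1626 of 23284) were removed; they carried 42.9% to 56.2% of summed FPKM per library, and values under 1e-06 were set to 0. Genes with at least 1 FPKM in at least 2 of 6 libraries were tested with limma 3.58.1 (R 4.3.3) on log2(FPKM + 1), with trended and robust eBayes, two-sided, with Benjamini-Hochberg adjustment over all genes tested and 4 residual degrees of freedom. A gene that reached 1 FPKM only in HLE and SK-HEP1 passed this filter through the pair, so its being higher there follows from the filter. An exact permutation of 2 against 4 libraries cannot go below p = 0.0667. Depth was estimated from value steps and is approximate. Simulated data with known changes, drawn for all 6 libraries, tested the fit: of 67 genes changed by 4 on the log2 scale 67.2% were called, of those changed by 2 7.46% and of those changed by 1 none; without the library labelled Hep3b the share for a change of 4 was 28.4%. The members and lists were chosen with earlier results of these data known. The text names called list members, uncalled members with the highest mean level, members under 0.1 FPKM in one group and over 1 FPKM in all of the other, the 12 largest called changes in each direction, isoform pairs, markers of other cell types and the 10 largest differences between HLE and SK-HEP1; the report lists the genes outside this rule. Some genes that the rule names are not reported here. Leaving out each library was planned; the second account without the library labelled Hep3b, with its own alternatives, was added after seeing its levels. Promoter windows were matched to RefSeq (GRCh38.p14) by symbol.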

Additional observations from a re-analysis of the deposited data

Results flagged for a closer look

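Among 97 genes with a printed difference, the 4 libraries of Hep3b, Huh1, Huh7 and HepG2 were searched for one that stood apart, as the gap to the nearest of the others divided by the range of all 4 (chance flags about 1 in 20 groups). All 12 genes in which the library labelled Hep3b stood apart were named through the comparison that leaves it out. That choice favours genes in which it departs from the other 3, so the chance rate does not apply to them and their number is no result. It stood apart low in 5 genes, all of which the other 3 lines expressed: HGD (0.929), RBP4 (0.896), CDH1 (0.868), UBD (0.858) and AMBP (0.85). It stood apart high in 7 genes: LY6K (0.988), TWIST1 (0.981), HOXD9 (0.974), CD70 (0.966), BASP1 (0.957), IL7R (0.923) and ZEB2 (0.832). HepG2 was the low library for VIM (0.927), at 8.08 FPKM. PTX3 was highest in Huh7 (0.872, at 2.43 FPKM beside at most 0.208 in the other 3). POSTN in HepG2 (1.0, at 0.0176 FPKM) and AFAP1L2 in Huh1 (0.902, at 0.131 FPKM) were single libraries slightly above near-zero levels. The flags outside the library labelled Hep3b were no more than a chance rate of about 1 in 20 gives among 97 genes.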

How the results depend on the processing

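The 22 higher and 12 lower genes became 6 and 19 with a pseudocount of 0.1, and 4 and 2 without a filter on low values. The higher count was 8 with a filter of 5 FPKM, 47 with plain eBayes, 38 with short RNA rows kept and 12 in the siSFPQ libraries with TGF-beta, and the lower count was 23 with the mean of each line's 4 libraries. Leaving out 1 library gave 0 to 84 higher and 0 to 113 lower. Without the library labelled Hep3b, the 84 higher and 113 lower genes became 7 and 11 without a filter, 46 higher in the siSFPQ libraries with TGF-beta and 179 lower with a pseudocount of 0.1, and leaving out 1 more library gave 0 to 164 higher and 0 to 288 lower. The cause was not tested. Of 97 genes with a printed difference none reversed in any of these settings, and of 1709 recomputed values 1517 kept their side of the threshold, 139 lost it and 53 gained it. No paired analysis was possible because each line belongs to 1 group only and the lines carry no replicate numbers. With 2 lines against 4, small changes could not be called, and levels under 0.0762 FPKM rest on about 1 read per kilobase or fewer.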

Other observations

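Runs of neighbouring genes under 0.5 FPKM in 1 library were looked for after the values of PSPC1 and CDKN2A had been seen. A run needed at least 3 genes at 1 FPKM or more in the other 5, and chromosomes 8, X and Y were not searched. There were 3 runs, and the stretch of CDKN2A, CDKN2B and MTAP was not among them. All of these genes were under 0.5 FPKM in the library labelled HLE, but CDKN2B stood at 0.859 FPKM in HepG2, under the 1 FPKM needed. The longest run found, on chromosome 13 in the library labelled HLE, spans 19 genes from LINC00442 to XPO4. Of these, 8 reached 1 FPKM in all 5 other libraries: MPHOSPH8, PSPC1, ZMYM5, ZMYM2, CRYL1, IFT88, N6AMT2 and XPO4. None of the 8 exceeded 0.239 FPKM in that library, and they ran from 2.31 to 95.4 FPKM in the others. A second run in the same library, on chromosome 19, held ZNF845, ZNF765 and ZNF761. In the library labelled SK-HEP1, the complement proteases C1S and C1R with C1RL and CLSTN3 on chromosome 12 were all at 0.188 FPKM or less. The library labelled HLE also held 25.5 FPKM of HLA-DRA, 4.24 of its regulator CIITA and 129.7 of the invariant chain CD74, beside 0, 0.171 and 0.791 in SK-HEP1. CD74 was not particular to HLE, since it stood at 120 FPKM in HepG2 and 13.2 in Huh7. HLA-DRA and CIITA were at most 0.0478 and 0.211 FPKM in the libraries outside the pair.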
